A study of Danio rerio with 12 samples.

Results

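The melanin pigment genes of adult zebrafish eyes are described here in 6 *akr7a3*+/+ and 6 *akr7a3*-/- eyes. They are the enzymes *tyr*, *tyrp1a*, *tyrp1b* and *dct*, the fibril proteins *pmela* and *pmelb*, the transporters *oca2*, *slc45a2* and *slc24a5*, and the transcription factor *mitfa*. These 10 genes were taken by name from an expression table of 25432 genes, and all 10 were found, once each. Both genotypes were in the *Tg(fli1:EGFP)* background, a line whose blood vessels carry a green fluorescent protein. Wild-type *akr7a3*+/+ eyes were the controls. CRISPR/Cas9 mutagenesis had given the *akr7a3*-/- line a small insertion in exon 1 that shifts the reading frame to an early stop codon. Akr7a3 is an aldo-keto reductase, an enzyme that detoxifies reactive aldehydes such as acrolein, and the study compared the genotypes to find which genes differ in eyes without it. Age in months, sex and hour of collection of the fish are not given in the sources used here, nor is whether each eye came from a different animal. The p-values therefore measure the spread between these samples, which may be in part technical. The study used phenylthiourea, an inhibitor of tyrosinase, to keep embryos and larvae clear for imaging, and whether the fish behind these eyes had been raised in it is not given.

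Melanin is made inside melanosomes, lysosome-related organelles of pigment cells. Tyrosinase starts the pathway by oxidising tyrosine to dopaquinone, dopachrome tautomerase (Dct) and the Tyrp1 proteins act on later intermediates, and Pmel forms the amyloid fibrils on which the pigment is laid down. Oca2, Slc45a2 and Slc24a5 carry ions or solutes across the membranes of the organelle and set the conditions in which tyrosinase works. In the fish eye the pigment lies in the retinal pigment epithelium, which also runs part of the visual cycle, and in melanophores of the choroid and iris. Zebrafish mutants show what single genes do: loss of *slc45a2* gives *albino* fish, loss of *slc24a5* *golden* fish, loss of *tyr* *sandy* fish, and loss of *mitfa* *nacre* fish, which lack body melanophores but keep a pigmented eye.

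Each value is in FPKM, the fragments counted on a gene per kilobase of its length and per unit of library depth. The totals of the eyes, worked out from the steps of the values, lay between 21194609 and 35016388 reads, and the genotype medians were 27165545 in +/+ and 26260256 in -/- eyes. The targeted gene matched the labels. *akr7a3* (ENSDARG00000016649) had 1.35 to 2.65 FPKM in +/+ and 0.267 to 0.414 FPKM in -/- eyes, with a log2 fold change of -1.56 (SE 0.140, n = 6 against 6, limma, adjusted p = 2.66e-05). The size rests on the 0.5 added before the log, since it was -2.23 with 0.1 added, -1.16 with 1 added and -2.55 in voom on the recovered reads. Of 18473 genes tested, 2133 passed an adjusted p of 0.05, which is 11.5% of them. Marker genes of tissues other than the pigment cells were looked at too. Of 18 muscle markers 10 were lower in -/- eyes, and their summed level was 922 to 2123 FPKM in +/+ and 772 to 1102 FPKM in -/- eyes. Summed lens marker levels spread from 8255 to 15179 FPKM in +/+ and from 854 to 13951 FPKM in -/- eyes, and 0 of 19 passed in limma or in voom, with 5 at an unadjusted p of 0.05. All 19 lens markers nevertheless had a log2 fold change below 0, with a median of -1.25. So did all 18 muscle markers, with a median of -0.68. Of 8 blood markers 7 were above 0 and 1 below, with a median of 0.81, and 1 passed. Over all tested genes 8933 were above 0 and 9540 below. Of 23 rod and cone markers 11 passed, 6 higher and 5 lower in -/- eyes, with sums of 26065 to 39955 FPKM in +/+ and 41772 to 49444 FPKM in -/- eyes. Of 17 circadian clock genes 15 passed. The part of these differences in the results below was not tested, apart from the values given beside them.

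None of the 10 melanin genes passed the test between the genotypes. All 10 were tested and 0 were called, beside 11.5% of all tested genes (in -/- eyes 5.78% were higher and 5.77% were lower). At an unadjusted p of 0.05, 1 of the 10 passed, *pmelb*. Over all tested genes the share at that threshold is at least 11.5%, since every called gene also passes it. No member separated the genotypes without overlap, beside 6.62% of all tested genes. Log2 fold changes were above 0 for 3 members and below 0 for 7, with a median of -0.09 beside -0.01 over all tested genes, and ran from -0.27 for *tyr* to 0.40 for *pmelb*. With 0.5 added before the log, the 95% intervals of all 10 lay within a change of 1 on the log2 scale. The lowest bound was -0.73 and the highest 0.73. The added 0.5 shrinks the changes of low genes, so these bounds do not exclude larger ones there. The log2 fold change of *slc24a5* was -0.25 in this fit, -0.34 with 0.1 added and -0.40 in voom on the recovered reads. An interval that spans 0 does not show that a gene was the same. Fitting the recovered read counts with voom instead also called 0 members. In whole eyes, fewer pigment cells and less RNA per cell cannot be told apart.

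**Figure D1:**
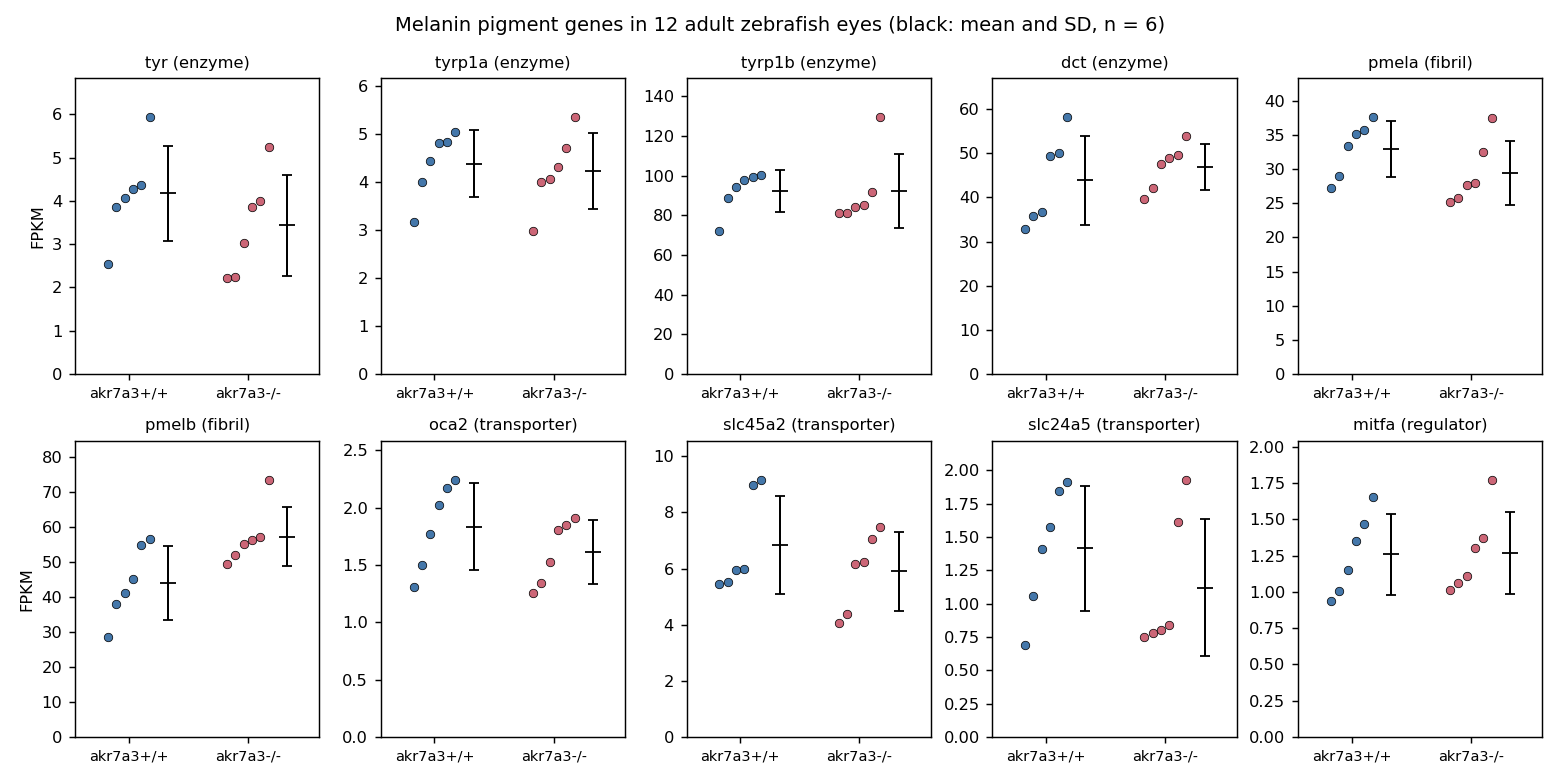
FPKM of each melanin pigment gene (vertical axis, starting at 0, its own scale in each panel) in the 6 akr7a3+/+ eyes (blue) and the 6 akr7a3-/- eyes (red). Points are single eyes, ordered by value, and the black bars give mean and SD. The genotypes overlap in all 10 panels, and the 6 -/- eyes of pmelb sit between 49.3 and 73.5 FPKM beside 28.5 to 56.4 FPKM in the +/+ eyes.

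*tyr* (ENSDARG00000039077), the tyrosinase that catalyses the first and rate-limiting step, was a low-abundance transcript. Its lowest, median and highest values were 2.54, 4.17 and 5.94 FPKM in +/+ eyes and 2.23, 3.45 and 5.25 FPKM in -/- eyes. The ranges overlapped along most of their length, although 2 of the -/- eyes lay below every +/+ eye. The means were 4.17 ± 1.09 and 3.43 ± 1.17 FPKM (SD, n = 6 each), and the log2 fold change was -0.27 (95% interval -0.71 to 0.18, limma, adjusted p = 0.448). Its interval was the widest of the 4 enzymes, and its values rest on 125 to 404 reads an eye.

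*tyrp1b* (ENSDARG00000056151), a tyrosinase-related protein, was the most abundant of the 10 genes. In +/+ eyes it ran from 72.2 through a median of 96.1 to 100.2 FPKM, and in -/- eyes from 81.1 through a median of 84.6 to 129.6 FPKM. The means were 92.1 ± 10.6 and 92.1 ± 18.7 FPKM (SD, n = 6 each). The log2 fold change was -0.01 (95% interval -0.27 to 0.25, limma, adjusted p = 0.964). The +/+ median was above that of the -/- eyes, and 1 eye, -/- replicate 8, brought the -/- mean level with the +/+ mean. This gene alone gave 35.6% to 43.0% of the summed FPKM of the 10 genes in each eye.

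Its paralog *tyrp1a* (ENSDARG00000029204) was far less abundant. Its lowest, median and highest values were 3.16, 4.62 and 5.03 FPKM in +/+ eyes and 2.97, 4.18 and 5.35 FPKM in -/- eyes. The log2 fold change was -0.05 (95% interval -0.33 to 0.24, limma, adjusted p = 0.860). How reads that fit both copies were counted is not given in the sources used here, so that the split between them, and that between *pmela* and *pmelb*, is uncertain.

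*dct* (ENSDARG00000006008), which converts dopachrome to a carboxylated indole, was the second enzyme by level. It ran from 32.8 through 43.1 to 58.2 FPKM in +/+ eyes and from 39.6 through 48.3 to 53.9 FPKM in -/- eyes. The +/+ eyes spread more widely and enclosed all -/- eyes. The means were 43.8 ± 10.1 and 46.9 ± 5.24 FPKM (SD, n = 6 each), and the log2 fold change was 0.12 (95% interval -0.18 to 0.42, limma, adjusted p = 0.627).

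The fibril genes gave the largest and the only nominal difference. *pmelb* (ENSDARG00000033760) had 28.5, 43.0 and 56.4 FPKM as lowest, median and highest value in +/+ eyes, and 49.3, 55.6 and 73.5 FPKM in -/- eyes. All 6 -/- eyes lay above the +/+ median and 2 above every +/+ eye, while +/+ replicates 1 and 3, at 54.8 and 56.4 FPKM, fell among the -/- eyes. The means were 43.9 ± 10.6 and 57.2 ± 8.49 FPKM (SD, n = 6 each), a fold of 1.32 (95% interval 1.05 to 1.66). The log2 fold change of 0.40 (SE 0.153) had an unadjusted p of 0.0216 in limma and an adjusted p of 0.114, and a two-sided exact permutation test gave p = 0.0303. *pmelb* is therefore not called. The counts behind it were high, at 1913 to 5649 reads an eye, for which counting error is at most 2.29%, less than the spread between eyes.

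*pmela* (ENSDARG00000091298), whose loss in the zebrafish mutant *fading vision* leaves a pale pigment epithelium, lay on the other side of 0. The values were 27.2, 34.3 and 37.6 FPKM in +/+ eyes and 25.2, 27.8 and 37.5 FPKM in -/- eyes. Of the 6 -/- eyes 1 lay above the +/+ median, and 2 lay below every +/+ eye. The means were 33.0 ± 4.11 and 29.4 ± 4.71 FPKM (SD, n = 6 each), and the log2 fold change was -0.17 (95% interval -0.40 to 0.07, limma, adjusted p = 0.364). In a table of the assembly GRCz12tu, used here only to see which genes share a chromosome, *pmela* is the 1 member of 10 on the chromosome of *akr7a3*, so that alleles carried along with the mutation and the mutation itself cannot be told apart at this gene.

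The 3 transporter genes all had log2 fold changes below 0 and none passed. *slc45a2* (ENSDARG00000002593), the *albino* gene, was the most abundant of them, at 6.84 ± 1.75 FPKM in +/+ and 5.90 ± 1.40 FPKM in -/- eyes (SD, n = 6 each), and the log2 fold change was -0.20 (95% interval -0.57 to 0.18, limma, adjusted p = 0.518). *oca2* (ENSDARG00000061303), an anion channel of the melanosome in mammals, was at 1.84 ± 0.378 and 1.61 ± 0.280 FPKM, with a log2 fold change of -0.14 (95% interval -0.42 to 0.14, limma, adjusted p = 0.536). *slc24a5* (ENSDARG00000024771), a potassium-dependent sodium-calcium exchanger, was the most variable member, with coefficients of variation of 33.3% in +/+ and 46.0% in -/- eyes.

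The values of *slc24a5* overlapped widely. In the -/- eyes, 4 lay close together at 0.752, 0.783, 0.798 and 0.843 FPKM, and replicates 1 and 9 stood at 1.93 and 1.61 FPKM. The +/+ eyes ran from 0.686 to 1.91 FPKM without such a gap, with a median of 1.49 FPKM beside 0.821 FPKM in the -/- eyes. The log2 fold change was -0.25 (95% interval -0.73 to 0.22, limma, adjusted p = 0.50). These values rest on 34 to 129 reads an eye, for which counting error alone is up to 17.1%, less than the spread of either genotype.

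*mitfa* (ENSDARG00000003732), the factor that specifies body melanophores and switches on many melanosomal genes, was the member nearest to 0 change. It ran from 0.933 to 1.65 FPKM in +/+ eyes and from 1.01 to 1.77 FPKM in -/- eyes. The means were 1.26 ± 0.279 and 1.27 ± 0.283 FPKM (SD, n = 6 each), and the log2 fold change was 0.01 (95% interval -0.28 to 0.30, limma, adjusted p = 0.973). The sign of so small a value changes with single eyes and with the processing, and only its interval can be read.

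**Figure D2:**
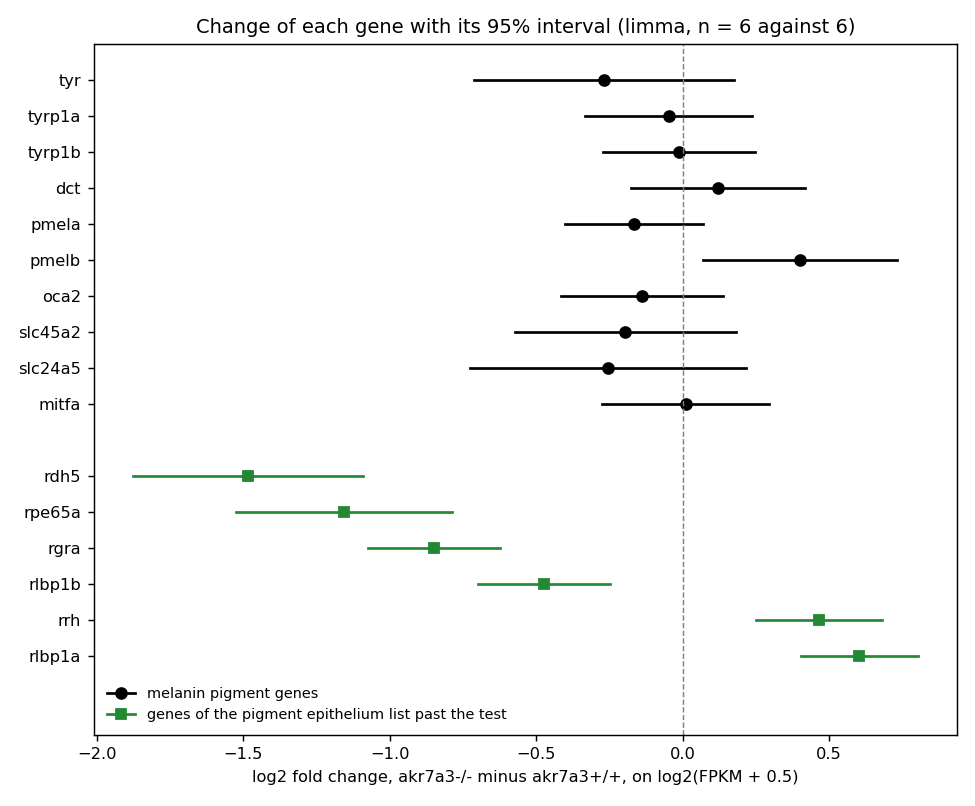
Log2 fold change of akr7a3-/- against akr7a3+/+ eyes on log2(FPKM + 0.5), with 95% intervals from limma, for the 10 melanin pigment genes (black circles) and the 6 genes of the pigment epithelium list that passed the test (green squares). Of the melanin genes, 9 intervals span 0 and that of pmelb runs from 0.07 to 0.73. The green genes are drawn because they passed, so their intervals lie off 0 by that choice, 4 below and 2 above. The tested genes of that list that did not pass are not drawn, so the 2 sets cannot be compared here.

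Per length, the order of the +/+ means was *tyrp1b*, *pmelb*, *dct*, *pmela*, *slc45a2*, *tyrp1a*, *tyr*, *oca2*, *slc24a5* and *mitfa*. The order was the same in all 12 eyes at 3 of its 9 steps: *tyrp1b* above *pmelb*, *pmela* above *slc45a2*, and *tyr* above *oca2*. *dct* stood above *pmela* in 11 of 12 eyes, and so did *slc45a2* above *tyrp1a*. Neighbours that could not be ordered beyond their spread were *pmelb* and *dct*, whose +/+ means of 43.9 and 43.8 FPKM were nearly equal and whose order held in 3 of 6 +/+ eyes but in 6 of 6 -/- eyes, and *slc24a5* and *mitfa*, whose order held in 6 of 12 eyes. *tyrp1a* exceeded *tyr*, and *oca2* exceeded *slc24a5*, in 10 of 12 eyes each. The 4 genes *tyrp1b*, *pmelb*, *dct* and *pmela* were thus far above the other 6, with *pmela* 4.83 times the +/+ mean of the next gene.

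Summed over the 10 genes, the lowest, median and highest eyes were at 177, 240 and 270 FPKM in +/+ and at 210, 232 and 316 FPKM in -/- eyes. The genotypes overlapped. In +/+ replicate 7, 8 of the 10 members had their lowest +/+ value, and in -/- replicate 8, 7 of the 10 had their highest -/- value. In the plot of z scores each of these columns is of 1 colour but for 1 gene. The exceptions are *mitfa* in +/+ replicate 7 (z = 0.417) and *slc24a5* in -/- replicate 8 (z = -0.71).

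**Figure D3:**
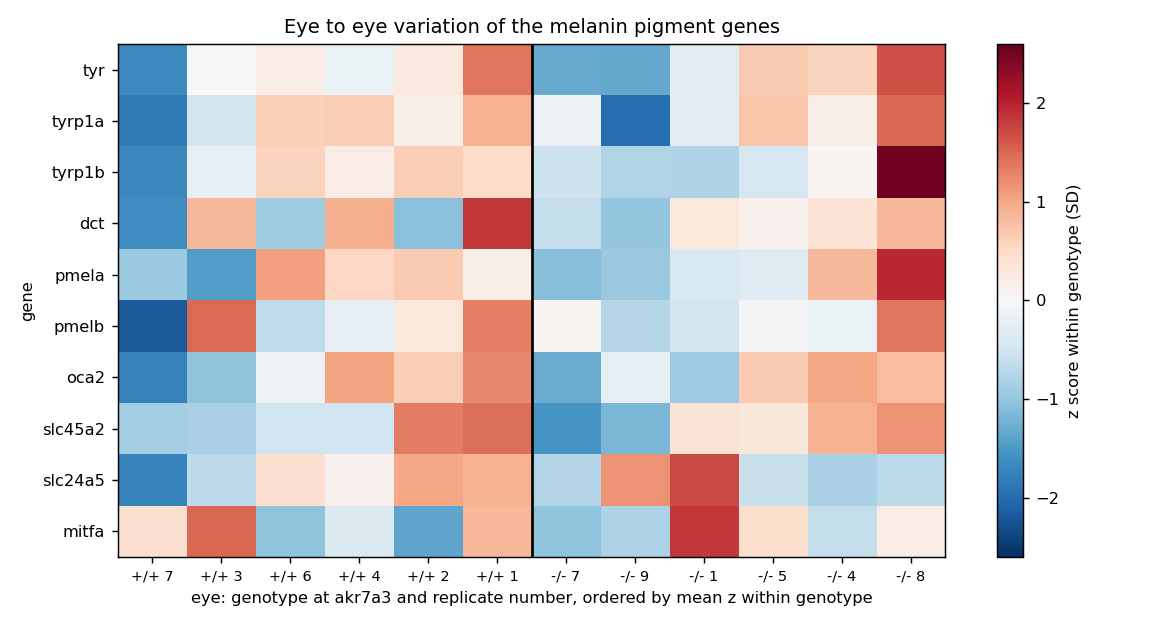
Z score of each gene in each eye, on log2(FPKM + 0.5) and centred within its genotype, with genes as rows and eyes as columns ordered by their mean z within each genotype. Red is above and blue below the genotype's mean, and the black line parts the genotypes. In +/+ replicate 7, 8 of the 10 rows are at their lowest +/+ value, among them slc24a5, and in -/- replicate 8, 7 rows are at their highest -/- value, while slc24a5 is highest in -/- replicate 1.

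Many members varied together from eye to eye once the genotype means were taken out. Over 12 eyes, the 45 pairs of members had a median Pearson r of 0.52, with a range of -0.31 to 0.86, and 23 had an r above 0.5. In each pair the 2 eyes farthest from the median of its first gene, in the order of the opening list, were then left out. The median r was 0.31 in this way. The pairs with *mitfa* and with *slc24a5* had the lower medians. With these 2 genes set aside, a choice made after their values were seen, the other 28 pairs all had an r above 0, with a median of 0.69. The median was 0.56 with 2 eyes left out of each pair as above. All points share the depth and tissue makeup of their eye. Over the 45 pairs, 9 passed an adjusted permutation p of 0.05, each among these 28.

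The closest pair was *tyr* and *tyrp1a*, with r = 0.86 (permutation p = 0.00052, adjusted p = 0.0117 over 45 pairs, n = 12) and Spearman's rho = 0.86 (permutation p = 0.0011, adjusted p = 0.0326). The r was 0.75 without the 2 eyes farthest in *tyr*, and 0.86 in each genotype alone. *tyr* and *slc45a2* followed with an r of 0.83, as did *tyrp1b* and *pmela*. The loosest pairs among the 8 genes joined *pmela* with *dct* and with *pmelb*, at r = 0.24 and 0.25. *mitfa* had a median r of 0.02 with the other 9 genes (range -0.31 to 0.52), and none of these pairs passed. *slc24a5* had a median r of 0.11 (range 0.02 to 0.26) over 12 eyes, with no pair past the test, but this joins a median of 0.79 in the 6 +/+ eyes with one of -0.46 in the 6 -/- eyes, a difference that was not tested.

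The ratio of FPKM values of 2 genes within an eye does not depend on how the eye is scaled, apart from the 0.5 added to each value here. Of such ratios 4 were compared between the genotypes by two-sided exact permutation. The smallest p that 6 against 6 eyes can give is 0.00216. The paralogs *tyrp1a* and *tyrp1b* kept nearly the same balance, with a log2 ratio of -4.25 ± 0.0865 in +/+ and -4.29 ± 0.194 in -/- eyes (SD, n = 6 each). The difference was -0.04 (exact permutation p = 0.686). In linear terms there was 18.1 to 27.4 times as much *tyrp1b* as *tyrp1a* in the 12 eyes.

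The balance of the paired fibril genes passed the threshold only narrowly, and only with the ratio to *rpe65a* in the same adjustment. The log2 ratio of *pmela* to *pmelb* was -0.38 ± 0.416 in +/+ and -0.95 ± 0.136 in -/- eyes (SD, n = 6 each), a difference of -0.57 (exact permutation p = 0.0195, adjusted p = 0.0390 over the 4 ratios). The 4 ratios include that of *pmela* to *rpe65a*, given below, whose exact permutation p of 0.00216 lowers this adjusted p. Adjusted without that ratio, the difference in *pmela* to *pmelb* would not pass 0.05. *rpe65a* itself passed between the genotypes. Put as linear levels of FPKM without the added 0.5, *pmelb* was 0.985 to 2.08 times *pmela* in +/+ eyes, with a median of 1.21, and 1.69 to 2.27 times in -/- eyes, with a median of 1.94. The ranges overlapped at +/+ replicate 3, whose ratio of 2.08 lay inside the -/- range. The call is at the limit of what these eyes can show: without any 1 of +/+ replicates 2, 6 or 7 or -/- replicates 1, 5, 7 or 9 the adjusted p was 0.0519 to 0.0693, with differences of -0.49 to -0.58.

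The same log2 ratio was set beside 11 lists of marker and pathway genes within the genotypes, and no list passed. The largest value was that of the muscle markers, whose mean z had r = -0.81 with the ratio (permutation p = 0.0101, adjusted p = 0.111 over 11 lists, n = 12) and rho = -0.59 (permutation p = 0.0703, adjusted p = 0.407). The r was -0.85 in +/+ and -0.38 in -/- eyes, and -0.69 without the 2 eyes farthest from the median ratio. The blood markers followed with r = 0.72 (permutation p = 0.0534, adjusted p = 0.274, n = 12) and rho = 0.55 (permutation p = 0.148, adjusted p = 0.407). Their r was 0.91 in +/+ and -0.79 in -/- eyes, and 0.38 without the 2 farthest eyes. The part of muscle or blood in the difference between the genotypes was not tested.

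The log2 ratio of *dct* to *tyr* was 3.25 ± 0.271 in +/+ and 3.64 ± 0.284 in -/- eyes (SD, n = 6 each). The difference of 0.39 had an exact permutation p of 0.0390 and an adjusted p of 0.0519, and so did not pass. Without the added 0.5 it was 0.43 (adjusted p = 0.0693 by the same exact permutation). It passed without +/+ replicate 4, at 0.45, and without -/- replicate 8, at 0.47.

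The fourth ratio set a melanin gene against *rpe65a*, the isomerase of the visual cycle and a marker of the pigment epithelium. The log2 ratio of *pmela* to *rpe65a* was -1.56 ± 0.343 in +/+ and -0.57 ± 0.182 in -/- eyes (SD, n = 6 each), a difference of 0.99 (exact permutation p = 0.00216, the smallest possible, adjusted p = 0.00866). The level of *rpe65a* was 2.4 to 4.51 times that of *pmela* in +/+ eyes and 1.29 to 1.86 times in -/- eyes, with no overlap. Of the pair *rpe65a* itself passed between the genotypes and ran from 66.2 to 158 FPKM in +/+ and from 34.9 to 51.7 FPKM in -/- eyes, while *pmela* overlapped between the genotypes. By itself *rpe65a* gave the same exact permutation p of 0.00216, so the test of this ratio does not show a change of *pmela*.

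**Figure D4:**
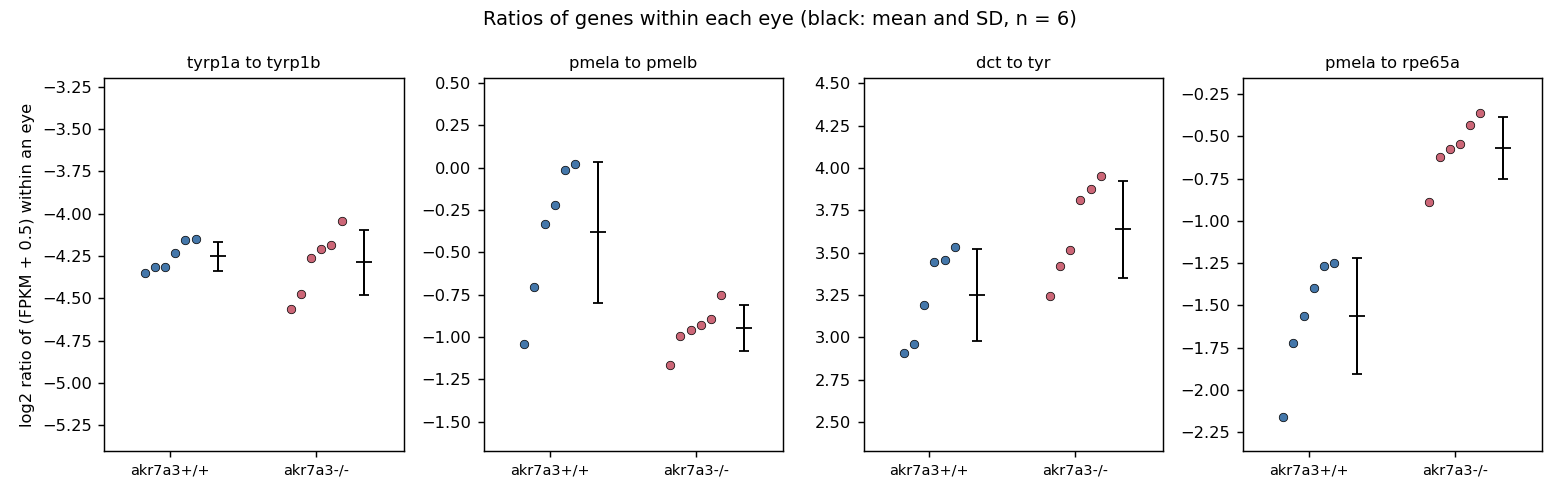
Log2 ratio of the (FPKM + 0.5) values of 2 genes within each eye (vertical axis, the same span of 2.2 log2 units in each panel) for the 6 akr7a3+/+ eyes (blue) and the 6 akr7a3-/- eyes (red). Points are single eyes, black bars are mean and SD. The ratio of pmela to rpe65a separates the genotypes fully, as rpe65a alone does. That of pmela to pmelb overlaps at 1 low +/+ eye, and that of tyrp1a to tyrp1b lies near -4.3 in both genotypes.

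The pigment epithelium list held called genes in both directions, and it was not tested against the melanin genes. It holds 20 symbols, of which 15 could be tested, and 6 passed, which is 40.0% beside 11.5% of all tested genes. Of these 6, 2 were higher and 4 lower in -/- eyes. The median log2 fold change of its tested genes was -0.08, beside -0.09 for the 10 melanin genes. *rdh5*, the retinol dehydrogenase that makes 11-cis-retinal, fell from 12.3 ± 2.47 to 4.21 ± 1.6 FPKM (log2 fold change -1.48, limma, adjusted p = 0.00024). *rpe65a* fell from 101 ± 31.0 to 43.9 ± 6.34 FPKM (-1.16, limma, adjusted p = 0.000878). *rgra*, an opsin of the pigment epithelium and Müller glia, fell from 62.9 ± 9.40 to 34.4 ± 3.52 FPKM (-0.85, limma, adjusted p = 0.00024), and *rlbp1b*, a retinaldehyde-binding protein, by 0.47 on the log2 scale (limma, adjusted p = 0.0114). The list was fixed by symbol, but it was chosen with earlier results of these data known. How far that choice bears on its share of called genes was not tested. Whether the pigment epithelium or other cells, such as Müller glia, gave the change of a listed gene cannot be read from whole eyes.

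The 2 genes of the list that rose were *rlbp1a*, the paralog of *rlbp1b*, from 77.8 ± 10.1 to 118 ± 10.9 FPKM (log2 fold change 0.60, limma, adjusted p = 0.00118), and *rrh*, which codes for peropsin, from 22.5 ± 3.97 to 31.0 ± 2.35 FPKM (0.47, limma, adjusted p = 0.0097). The other 9 tested genes did not pass. *rgrb*, the most abundant gene of the list, was at 207 ± 31.1 and 200 ± 33.9 FPKM (limma, adjusted p = 0.846), and *stra6*, the receptor that takes up retinol from the blood, at 90.9 ± 19.2 and 72.1 ± 16.0 FPKM (limma, adjusted p = 0.192). Of the defining markers *rpe65a*, *rlbp1a*, *rgra* and *rgrb* none was at 0 in any eye.

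A further list, called the regulator list here, holds transcription factors, receptors and channels of pigment cells. Being on it does not place a gene upstream of the melanin genes. Of 23 such symbols listed, 21 could be tested and 1 passed, which is 4.76% beside 11.5% of all tested genes, with a median log2 fold change of -0.01. *trpm1b*, a cation channel that its mammalian counterpart has in melanocytes and in ON bipolar cells of the retina, fell from 53.8 ± 3.71 to 40.1 ± 6.49 FPKM (log2 fold change -0.43, limma, adjusted p = 0.00969). Of the -/- eyes 5 lay below every +/+ eye, and replicate 7 lay at 52.8 FPKM among the +/+ eyes. Its paralog *trpm1a* was at 29.1 ± 5.68 and 27.5 ± 2.21 FPKM (limma, adjusted p = 0.786).

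The relatives of *mitfa* on this list did not pass. *mitfb*, the paralog of *mitfa*, was at 1.39 ± 0.250 and 1.43 ± 0.104 FPKM (limma, adjusted p = 0.831), and *tfec*, another factor of the same family, at 2.32 ± 0.574 and 2.27 ± 0.553 FPKM (limma, adjusted p = 0.938). *sox10*, a neural crest factor upstream of *mitfa*, was at 6.12 ± 0.791 and 5.34 ± 1.24 FPKM (limma, adjusted p = 0.370). *gpr143*, the ocular albinism receptor of the melanosome, was at 3.47 ± 0.713 and 4.31 ± 0.465 FPKM (limma, adjusted p = 0.121).

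Genes that build melanosomes, move them or supply their metal and acid form the last list. Of 50 symbols, 44 could be tested and 4 passed, 2 in each direction, which is 9.09% beside 11.5% of all tested genes, with a median log2 fold change of -0.03. *atp7a*, the copper pump that loads tyrosinase with its cofactor, rose from 3.26 ± 0.179 to 4.92 ± 0.359 FPKM (log2 fold change 0.52, limma, adjusted p = 0.000274). *hps1*, a subunit of the BLOC-3 complex of melanosome biogenesis, rose from 3.70 ± 0.649 to 6.10 ± 0.815 FPKM (0.66, limma, adjusted p = 0.00401). Neither gene overlapped between the genotypes.

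The 2 lower genes of that list were near the threshold. *bloc1s1*, a BLOC-1 subunit, was at 10.9 ± 3.05 and 7.03 ± 0.850 FPKM (log2 fold change -0.56, limma, adjusted p = 0.0382), and *myrip*, which links melanosomes of the pigment epithelium to a myosin motor, at 9.04 ± 1.43 and 7.07 ± 0.514 FPKM (-0.32, limma, adjusted p = 0.0465). Leaving out single eyes ended the call of *bloc1s1* in 9 of 12 fits, all but those without +/+ replicate 4, +/+ replicate 6 or -/- replicate 1, and that of *myrip* in 10 of 12, all but those without +/+ replicate 2 or 7, with adjusted p-values of up to 0.0817 and 0.0942. These genes are also used by cells that make no melanin, and a whole eye does not show in which cells they differed.

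Markers of the other pigment cells were looked at in the same way. Of 14 tested iridophore genes, those of the reflective purine-crystal cells, 1 passed, which is 7.14% beside 11.5% of all tested genes. It was *impdh1b*, an enzyme of guanine synthesis, at 12.5 ± 1.74 FPKM in +/+ and 22.4 ± 2.17 FPKM in -/- eyes (log2 fold change 0.82, limma, adjusted p = 0.000155). The cells in which *impdh1b* differed cannot be read from whole eyes. The summed level of the xanthophore genes, those of the yellow pteridine cells, was 25.0 to 39.3 FPKM in +/+ and 23.7 to 44.8 FPKM in -/- eyes, and 0 of 9 passed in limma or in voom, with 1 at an unadjusted p of 0.05.

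The genes most like the melanin genes from eye to eye were ranked over 12 eyes by their Pearson r with the mean z score of the 10 members, a description with no test. Among the closest were *itgae.1* (r = 0.89), *ednrba* and *rgrb* (0.88 each), *si:ch211-11n16.2* (0.87), *tbrg1* (0.86), and *slc38a8a* and *sgk494a* (0.85 each). Of these *ednrba*, an endothelin receptor of pigment cells, is on the regulator and iridophore lists, and *rgrb* on the pigment epithelium list. None of the genes named here passed between the genotypes. On the same scale the mean of the iridophore list had an r of 0.67 with the melanin genes, the xanthophore list 0.63, the pigment epithelium list 0.58 and the skin and cornea list -0.69. Muscle was at 0.05 and the clock genes at -0.08.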

How the data were processed

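RNA of 12 adult eyes was read from strand-specific DNBSEQ libraries of polyadenylated RNA. The authors mapped reads to GRCz11 with HISAT2, counted them with featureCounts 2.0.3 and deposited FPKM values, and their methods name edgeR and limma. Annotation release, strand setting and the handling of reads mapping to several genes are not given in the sources used here. Genotype and replicate number came from the sample labels.

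Genes that reached 0.5 FPKM in 6 or more of the 12 eyes (18473 of 25432) were tested on log2(FPKM + 0.5) with limma 3.58.1 in R 4.3.3, variance trend, genotype alone, and a Benjamini-Hochberg adjusted p under 0.05. Fold changes on this scale understate those of low genes. Whole reads were recovered for 25432 of 25432 genes from the step of 1 read (within 0.005 of a whole read) and served for depth and for a voom fit that called 2124 genes. Intervals are at 95%. Ratios were compared with exact permutation tests (Python 3.11.15, scipy 1.17.1), correlations with 100000 permutations within genotype. Only the limma fit was tested on simulated data, in which genes varied independently of each other. The ratio tests, the correlations and voom were not tested in this way.

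Named genes were the members, *akr7a3*, *rpe65a*, every called gene of the 3 pathway lists and the 8 genes most like the members, of which 1 is not reported here. Other genes were chosen after their values were seen. The members and lists were chosen with earlier results of these data known. Alternatives were pseudocounts of 0.1 and 1, no filter or a mean of at least 1 FPKM, median-of-ratios scaling, robust variance, voom, leaving out each eye, and a block on shared replicate numbers. Promoter motifs were not analysed here.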

Additional observations from a re-analysis of the deposited data

Results flagged for a closer look

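In 52 groups of 6 eyes, the gap between the most extreme eye and its nearest neighbour was compared with the range of the group by Dixon's criterion, which flags about 1 group in 20 by chance. It picked out 4 values, all of them the highest of the -/- eyes. In -/- replicate 8, *tyrp1b* stood at 129.6 FPKM beside 81.1 to 91.5 FPKM in the other 5 eyes, and *pmelb* at 73.5 FPKM beside 49.3 to 57.2 FPKM. The same eye had the largest summed level of the 10 melanin genes. In -/- replicate 7, *trpm1b* stood at 52.8 FPKM beside 35.4 to 40.9 FPKM, and in -/- replicate 1, *rdh5* stood at 7.40 FPKM beside 3.04 to 4.02 FPKM. Without -/- replicate 8, *tyrp1b* had a log2 fold change of -0.11 and *pmelb* one of 0.33, and neither passed.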

How the results depend on the processing

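The count of 0 called melanin genes held in all 21 alternatives. Their log2 fold changes kept their sign in every alternative except those of the 3 genes nearest to 0. Leaving out single eyes moved *tyrp1a* between -0.128 and 0.0378, *tyrp1b* between -0.114 and 0.0206 and *mitfa* between -0.0649 and 0.0714, and *mitfa* was at -0.0404 in both fits of 6 eyes and at -0.0036 with voom. The difference in the ratio of *tyrp1a* to *tyrp1b* ran from -0.0854 to 0.0183, that of *pmela* to *pmelb* from -0.70 to -0.49, that of *dct* to *tyr* from 0.32 to 0.47. Over all genes 2133 were called, 1518 to 2029 without single eyes. The genotypes share replicate numbers 1, 4 and 7. Deviations of eyes with the same number had correlations of 0.08, -0.20 and 0.07, so the numbers were not read as pairs. With these 6 eyes and a replicate block 1 gene was called, and 126 without the block. In both of these smaller fits 0 genes of the regulator, traffic and pigment epithelium lists were called. Without single eyes the regulator list had 1 to 2 calls, the traffic list 2 to 4 and the pigment epithelium list 6. Without the filter the traffic list had 2 calls. The block was not run for the ratios. The cause of these shifts was not tested, apart from the smaller number of eyes. Depth was lowest for *slc24a5*, *mitfa* and *oca2*, at 34, 57 and 76 reads in their lowest eyes, where counting error is 17.1%, 13.2% and 11.5%.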

Other observations

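*slc24a5* and *mitfa* were looked at further, by a choice made after their values were seen. Over 12 eyes the closest genes to *slc24a5* were *creb1a* (r = 0.96) and *elmo1* (r = 0.95), neither of which is on a pigment cell list. The closest to *mitfa* included the ribosomal protein genes *rps6* (r = 0.90) and *rpl36a* (r = 0.89). These are among the highest of 18473 correlations over 12 eyes that share depth and tissue makeup, and *slc24a5* and *mitfa* rest on as few as 34 and 57 reads an eye.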
